A study of Homo sapiens with 10 samples.

Results

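LIN28A, LIN28B, HMGA1, HMGA2, IGF2BP1, IGF2BP2 and IGF2BP3 were followed across 10 nanopore RNA-seq libraries of 7 ovarian cancer cell lines. The 7 genes were found by symbol in the deposited annotation and hold 24 of its 99493 transcripts, and they are 7 of its 57110 gene identifiers. None of the 24 transcripts sits under an identifier joined with another gene. The set was selected on gene levels (TPM summed over transcripts) across the 10 libraries, with LIN28A chosen by its being counted in IGROV-1 alone. The levels by line are therefore given as a description, with no test.

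All samples are established lines grown without a stated treatment, and the labels name the line and the instrument only. COV362, COV504, OVKATE, OVMANA, OVTOKO and SK-OV-3 have 1 library each, run on the PromethION, so a level in these lines rests on a single library. IGROV-1 has 2 PromethION and 2 MinION libraries. The labels do not say whether the IGROV-1 replicates came from separate cultures, so p-values measure the spread between these libraries, which may be technical. Library totals lay between 1729782 and 3666224 counts. Levels are given as CPM, the count scaled to a common library total and not divided by transcript length, so they are compared between libraries and not between genes.

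LIN28A and LIN28B are RNA-binding proteins of stem and fetal cells that bind the precursor of the let-7 microRNAs and keep it from being matured. The mature let-7 family acts in differentiated cells, where it represses transcripts that carry a match to its seed in their 3′ UTR. HMGA2, LIN28B and IGF2BP1 are textbook let-7 targets. The IGF2BP proteins bind messenger RNA, many of them at methylated adenosines, and stabilise or localise it. HMGA1 and HMGA2 bind AT-rich DNA and are chromatin proteins, so the set is described here as the LIN28, HMGA and IGF2BP genes and not as RNA-binding genes alone. All these families are high in the embryo, low in most adult tissue and high again in many tumours.

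The let-7 seed and its matches are shown first because all 7 genes carry at least 1 match. The 9 human let-7 family members of the RefSeq set, which include miR-98, share the same seed, bases 2 to 8 of the mature strand, marked in capitals.
hsa-let-7a-5p: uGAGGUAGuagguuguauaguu
hsa-let-7e-5p: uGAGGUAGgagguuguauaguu
hsa-miR-98-5p: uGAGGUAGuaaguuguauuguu

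The complement of this seed, CTACCTC, was searched on the sense strand of the annotated 3′ UTRs of GENCODE 29 on GRCh38. A match was present in 16 of the 24 transcripts and in 7 of 7 genes. Over all protein-coding transcripts with a 3′ UTR, 3539 of 60112 (5.89%) held one, and their median 3′ UTR was 507 bases. Long UTRs hold a match more often. Among UTRs within 10% of the length of a given transcript, the share with a match was 15.2% for the main LIN28A transcript, 14.3% for HMGA2, 29.2% for IGF2BP1, 12.7% for IGF2BP3, 9.8% for IGF2BP2 and 8.1% for HMGA1. A match describes the letters and is not evidence of binding.

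Each site below is shown 5′ to 3′ on the transcript with the 7-base match in capitals and the base that follows it. All HMGA2 sites of its main transcript are given, and the site nearest to the stop codon for the others.
LIN28A, chr1:26427348-26427370, plus strand: gcacagcctattgaaCTACCTCa
LIN28B, chr6:105078812-105078834, plus strand: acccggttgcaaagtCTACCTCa
HMGA1, chr6:34245829-34245851, plus strand: tcctctgttcacaaaCTACCTCt
HMGA2 site 1, chr12:65963298-65963320, plus strand: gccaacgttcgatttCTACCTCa
HMGA2 site 2, chr12:65964533-65964555, plus strand: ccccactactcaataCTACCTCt
HMGA2 site 3, chr12:65964945-65964967, plus strand: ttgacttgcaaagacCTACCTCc
HMGA2 site 4, chr12:65965798-65965820, plus strand: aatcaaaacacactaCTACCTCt
IGF2BP1, chr17:49051061-49051083, plus strand: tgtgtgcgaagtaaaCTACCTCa
IGF2BP2, chr3:185644220-185644242, minus strand: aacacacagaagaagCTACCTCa
IGF2BP3, chr7:23311795-23311817, minus strand: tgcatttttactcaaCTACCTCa

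The HMGA2, LIN28B and IGF2BP1 main transcripts each hold 4 matches. In HMGA2 the first starts 21 bases after the stop codon and the fourth at base 2521 of a 3003-base UTR. In LIN28B the first starts at base 44 of 4549, and in IGF2BP1 at base 1632 of 6206. LIN28A has 1 match at base 905 of 3264, IGF2BP2 1 at base 1304 of 1792, IGF2BP3 1 at base 560 of 2153 and HMGA1 1 at base 960 of 1347. An A follows the match in LIN28A, IGF2BP2, IGF2BP3, 3 of the 4 IGF2BP1 sites, 2 of the 4 LIN28B sites and 1 of the 4 HMGA2 sites, which makes an 8-base match. HMGA1 has no 8-base match.

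**Figure D1:**
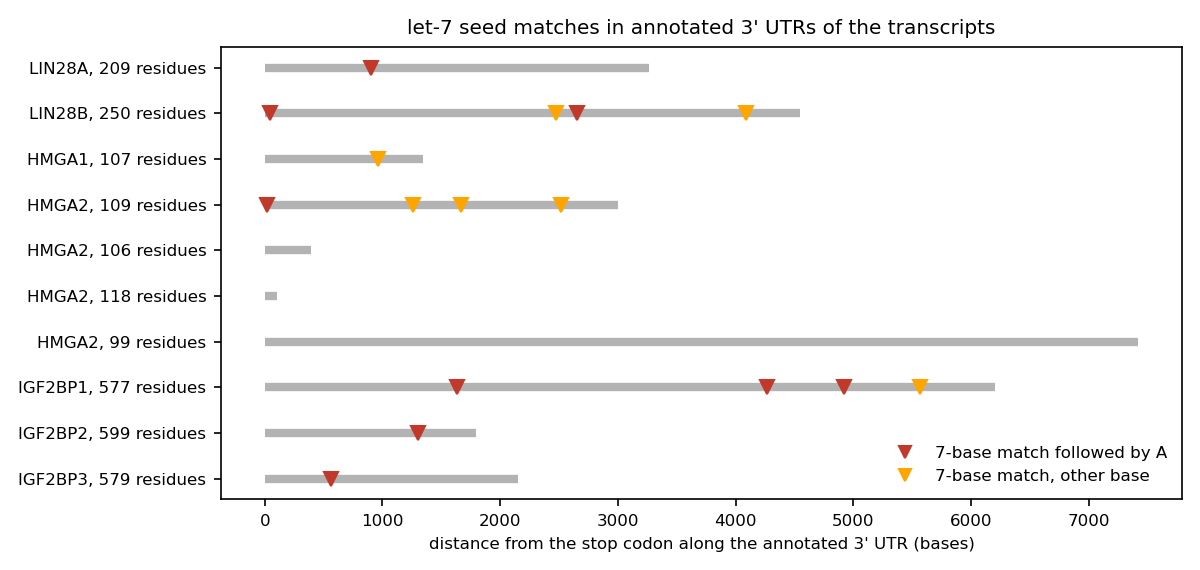
Positions of let-7 seed matches in annotated 3′ UTRs. Each grey bar is the 3′ UTR of 1 transcript, drawn from the stop codon (0) in bases, and triangles mark 7-base matches, red where an A follows. The 109-residue HMGA2 transcript carries 4 matches, and the HMGA2 transcripts for 106, 118 and 99 residues carry none.

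LIN28A (ENSG00000131914, chromosome 1, 26410778 to 26429722) was counted in the 4 IGROV-1 libraries and in no other. It reached 109.8 and 172.7 CPM on the PromethION and 80.2 and 110.6 CPM on the MinION, and 0 counts in each of the other 6 lines. The IGROV-1 libraries stood apart from all others without overlap. The PromethION mean was 141.2 ± 44.5 CPM (SD, n = 2). A count of 0 allows up to 3 counts, which is 1.18 to 1.73 CPM in these libraries, so LIN28A was at least 81.4-fold (OVTOKO) to at least 120.2-fold (COV362) higher in IGROV-1 than in a single other line. With the floor of 3 counts taken over the 6 other libraries together, it was at least 583.6-fold higher. Floors and intervals cover counting error only.

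The IGROV-1 libraries differed among themselves in LIN28A by more than in the other 5 genes that were well counted there. The higher replicate was 1.57 times the lower on the PromethION and 1.38 times on the MinION, against 1.04 to 1.27 times for HMGA1, HMGA2, IGF2BP1, IGF2BP2 and IGF2BP3 on either instrument. On both instruments the library numbered 2 was the higher one. KRT18, an epithelial keratin, differed the same way, at 262.7 and 1041 CPM in PromethION replicates 1 and 2 and at 243.6 and 1080 CPM in MinION replicates 1 and 2. Whether the libraries numbered alike share a culture was not stated, and the part of such a difference in the LIN28A values was not tested.

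Nearly all LIN28A counts fell on transcript ENST00000326279, a 4-exon transcript for 209 residues. It held 93.4% (95% Wilson interval 89.7% to 95.8%) and 92.8% (89.8% to 94.9%) on the PromethION and 96.9% (94.2% to 98.3%) and 95.8% (93.2% to 97.4%) on the MinION. The rest fell on ENST00000254231, which codes for the same 209 residues and has a 3′ UTR of 2753 bases with the same let-7 match. Thus 100% of the LIN28A counts were in transcripts with a match. The LIN28A pseudogenes LIN28AP1 and LIN28AP2 had 0 counts in every library.

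LIN28B (ENSG00000187772, chromosome 6, 104957048 to 105083332 for the main transcript), the paralog of LIN28A, was hardly counted. COV504 had 5 counts, which is 2.22 CPM with a 95% Poisson interval of 0.72 to 5.19 CPM. IGROV-1 PromethION replicate 1 had 1 count (0.43 CPM), and the other 8 libraries had 0. All 6 counts fell on ENST00000345080, the 250-residue form. Only COV504 lay above the floor of 3 counts, and its interval overlapped that of IGROV-1. No library thus held LIN28A and more than 1 count of LIN28B.

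HMGA2 (ENSG00000149948, chromosome 12, 65824131 to 65966295), the fetal member of the HMGA pair, was highest in IGROV-1. It reached 401.1 and 438.1 CPM on the PromethION and 479.0 and 538.5 CPM on the MinION. In the other lines it was 109.3 CPM in COV362, 72.4 in SK-OV-3, 68.8 in OVTOKO, 67.3 in OVMANA and 64.1 in COV504, and OVKATE had 0 counts. The lowest IGROV-1 library was above the highest other line, and the PromethION mean of 419.6 ± 26.2 CPM (SD, n = 2) was 3.84 times the level in COV362. Against OVKATE it was at least 282.8-fold higher. COV362 lay above the next 4 lines beyond counting error, while the Poisson intervals of neighbours among SK-OV-3, OVTOKO, OVMANA and COV504 overlapped.

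HMGA1 (ENSG00000137309, chromosome 6, 34236873 to 34246231), its paralog, ran the other way in IGROV-1. It was lowest there, at 32.9 and 39.5 CPM on the PromethION and 41.7 and 43.3 CPM on the MinION. The other lines held 734.1 CPM (COV504), 643.3 (COV362), 585.0 (SK-OV-3), 515.6 (OVMANA), 112.3 (OVKATE) and 72.3 (OVTOKO). No IGROV-1 library reached the lowest other line. The highest, COV504, was 20.3 times the IGROV-1 PromethION mean of 36.2 ± 4.7 CPM (SD, n = 2), and OVTOKO was 2.0 times it. Of neighbours in this order, only the intervals of COV362 and SK-OV-3 overlapped.

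Across the 7 lines the log2(CPM + 1) levels of HMGA1 and HMGA2 had a Pearson r of 0.02, and of 0.53 over the 6 lines without IGROV-1. In OVKATE HMGA2 was at 0, and HMGA1, at 112.3 CPM, was below all other lines but OVTOKO and IGROV-1. An r without OVKATE was not computed. The counts of HMGA1 could in principle be shared with its many processed pseudogenes. Of the 7 pseudogenes checked, HMGA1P4 had 2 counts in OVKATE and the others had 0 in every library.

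IGF2BP1 (ENSG00000159217, chromosome 17, 48997412 to 49055650), a fetal regulator of messenger stability, was above the floor of 3 counts in 3 lines. It was at 63.2 and 80.3 CPM in IGROV-1 on the PromethION and at 64.4 and 71.4 CPM on the MinION. OVMANA followed with 52.9 CPM and OVTOKO with 7.52 CPM. COV362 had 0.78 CPM, below that floor, and OVKATE, SK-OV-3 and COV504 had 0. The intervals of IGROV-1 and OVMANA overlapped. Against the lines at 0, the IGROV-1 PromethION mean of 71.8 ± 12.1 CPM (SD, n = 2) was at least 47.2-fold to at least 53.8-fold higher.

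IGF2BP3 (ENSG00000136231, chromosome 7, 23310209 to 23470467), which is normally fetal as well, was found in more lines. IGROV-1 had 46.1 and 43.0 CPM on the PromethION and 44.2 and 38.9 CPM on the MinION. COV362 had 38.4 CPM, COV504 30.3, OVMANA 26.2 and OVTOKO 20.8, and each neighbour in this order overlapped the next. SK-OV-3 with 2.53 CPM and OVKATE with 0.49 CPM lay below these lines beyond counting error.

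IGF2BP2 (ENSG00000073792, chromosome 3, 185643739 to 185825056), the member of the family that adult tissues also express, was counted in all libraries. OVMANA had 150.7 CPM, IGROV-1 142.7 and 131.9 on the PromethION and 93.6 and 115.2 on the MinION, and COV504 111.7. OVTOKO followed with 83.2 CPM, SK-OV-3 with 61.8, OVKATE with 45.0 and COV362 with 34.9. The highest of the 6 other lines was 4.32 times the lowest. The intervals of OVMANA and IGROV-1 overlapped.

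**Figure D2:**
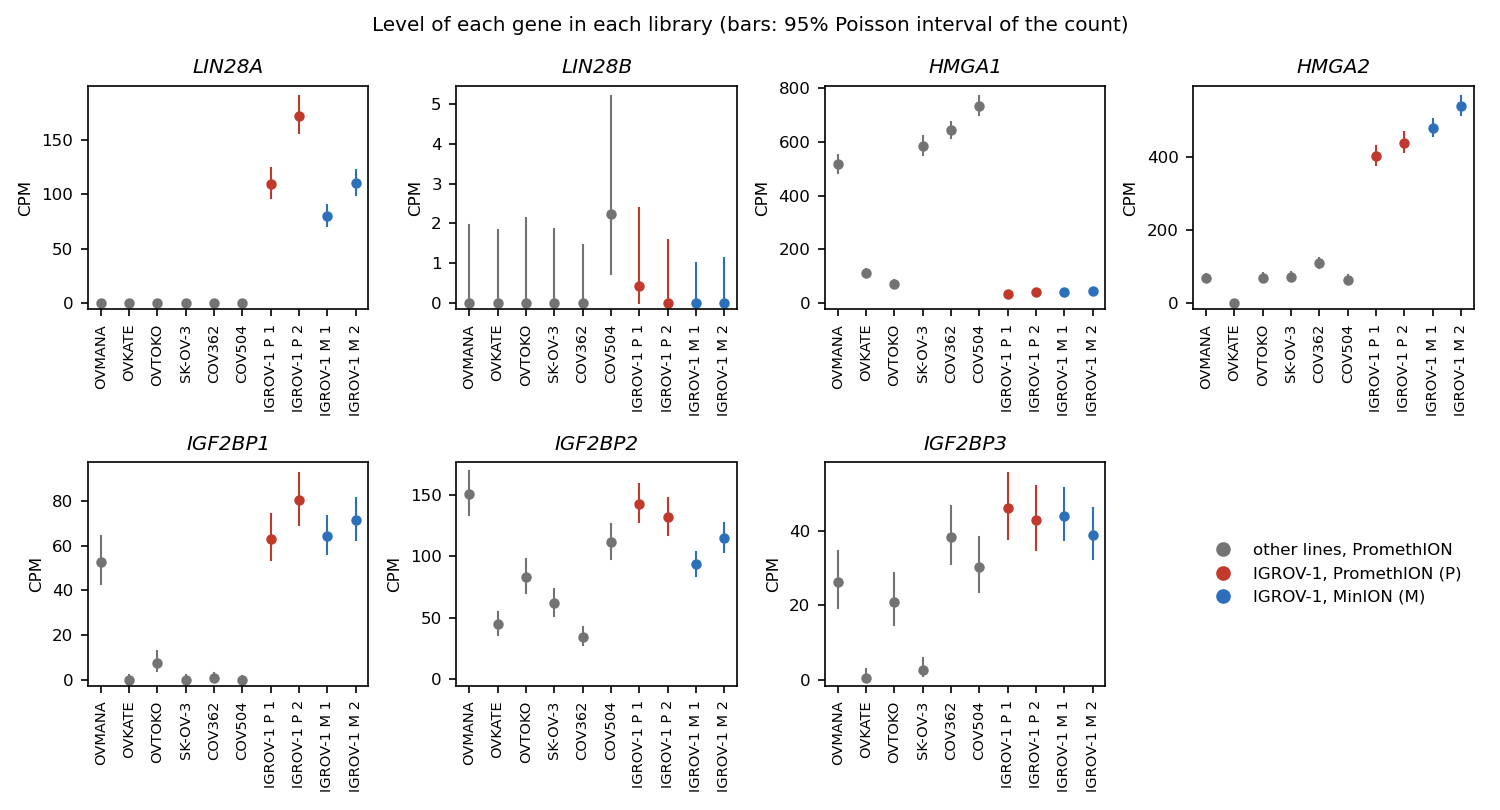
Level of each gene in CPM (vertical axis, 0 at the bottom, own scale per panel) in each library, with points for libraries and bars for the 95% Poisson interval of the count. LIN28A is above 0 in the 4 IGROV-1 libraries alone (80.2 to 172.7 CPM), HMGA2 is highest in them and HMGA1 lowest.

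By line, IGROV-1 held LIN28A, HMGA2 and the 3 IGF2BP genes together. OVMANA held HMGA1, HMGA2 and the 3 IGF2BP genes without LIN28A. OVKATE was the poorest in these transcripts, with HMGA2, IGF2BP1 and both LIN28 genes at 0, IGF2BP3 at 1 count, and HMGA1 and IGF2BP2 counted. Among pairs of genes over the 7 lines, the highest Pearson r of log2(CPM + 1) was 0.81 for HMGA2 with IGF2BP3 (0.78 over the 6 lines without IGROV-1), followed by 0.72 for IGF2BP1 with IGF2BP2 (0.64 without it). LIN28A with HMGA1 had the lowest, -0.67, which rests on IGROV-1, the single line with LIN28A. HMGA2 and IGF2BP3 both had their lowest level in OVKATE (0 and 0.49 CPM), and their r without OVKATE was not computed. With 7 points, 6 of them single libraries, these r values describe the lines.

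The genes most like each member in pattern were taken by the same correlation among 10750 genes reaching 10 CPM in a line. ERMN, NMRK2 and PICSAR matched LIN28A at an r of 1.0, being at 14.1, 14.1 and 19.7 CPM in IGROV-1 and at 0 elsewhere. There were 14 genes over 0.95, so a pattern limited to IGROV-1 is shared by few genes at this level. For HMGA2 the nearest was CDKN1B, an inhibitor of cyclin-dependent kinases, at 0.99. CDKN1B was at 155.3 CPM in IGROV-1 and, like HMGA2, at 0 in OVKATE. BAG2 and ABCF1 followed at 0.97 each. For HMGA1 the nearest were VEGFB and MBNL1 at 0.98 and GATB at 0.96. For IGF2BP1 they were ARID3A at 0.98, GPHN at 0.97 and MERTK at 0.96. For IGF2BP2 they were KIAA0895 at 0.97, MRPL19 at 0.96 and CEP120 at 0.95, and for IGF2BP3 ERLIN1, PHC1 and AHCY at 0.96 each. A high r does not mean an equal size of change. AHCY ran from 72.2 to 144.5 CPM over the lines, against 0.495 to 44.5 CPM for IGF2BP3. GATB ran from 9.21 to 12.5 CPM, against 36.2 to 734.1 CPM for HMGA1.

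The shares of the transcripts behind these levels were compared next. HMGA2 is annotated with 7 transcripts, of which only ENST00000403681, for 109 residues, has the 3003-base UTR with the let-7 matches. It held 99.67% and 99.69% of HMGA2 counts in the IGROV-1 PromethION libraries and 99.94% and 99.80% in the MinION libraries. In the other lines it held 97.6% (95% Wilson interval 93.2% to 99.2%) in OVMANA, 92.2% (86.0% to 95.8%) in OVTOKO, 91.2% (87.3% to 94.0%) in COV362, 90.0% (84.0% to 93.9%) in COV504 and 87.3% (80.8% to 91.8%) in SK-OV-3. The 4 IGROV-1 libraries had the highest shares, and the intervals of OVTOKO, COV362, COV504 and SK-OV-3 lay wholly below theirs.

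The remaining HMGA2 counts fell mainly on transcripts that end at other positions and lack the UTR with the let-7 matches. SK-OV-3 had 10.2 estimated counts on the 106-residue form ENST00000354636 (7.11% of the gene) and 7.0 on the 118-residue form ENST00000393577 (4.90%). COV362 had 7.39 and 8.72 estimated counts on these forms, and COV504 had 1.16 and 6.69. The 99-residue form ENST00000541363 had 6.31 estimated counts in COV362 and 5.38 in COV504. These are few molecules per library. When transcripts under 5 estimated counts in a library were left out, the share of the 109-residue form became 100% in OVMANA, OVTOKO and IGROV-1. Estimated counts assign reads to annotated transcripts, and the files do not hold the read ends, so a shortened UTR of the main transcript cannot be seen.

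HMGA1 is annotated with forms of 107 residues (HMGA1a) and 96 residues (HMGA1b), which differ by a short in-frame stretch between the AT-hooks and share the same UTR and let-7 match. Their main transcripts were ENST00000311487 and ENST00000401473, with 3928 and 1659 estimated counts over all libraries. The 107-residue form held 65.6% to 73.1% of HMGA1 counts in the 6 other lines. The intervals of the lowest, COV362 (63.3% to 67.9%), and the highest, COV504 (70.9% to 75.2%), did not overlap. In IGROV-1 it held 51.7% (95% Wilson interval 40.7% to 62.5%) and 75.8% (66.1% to 83.4%) on the PromethION and 67.8% (60.0% to 74.7%) and 65.3% (57.1% to 72.6%) on the MinION. PromethION replicate 1 was the lowest library and PromethION replicate 2 the highest, so the replicates of IGROV-1 differed more from each other than the 6 other lines did. HMGA1 had only 77 to 153 counts a library in IGROV-1.

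The IGF2BP genes were each counted almost wholly on 1 coding form. These were ENST00000290341 for IGF2BP1 (577 residues), ENST00000382199 for IGF2BP2 (599 residues) and ENST00000258729 for IGF2BP3 (579 residues). Summed over all libraries they held 916, 2283 and 731 estimated counts, against 0.02, 52.7 and 21.7 on the other transcripts of the same genes.

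**Figure D3:**
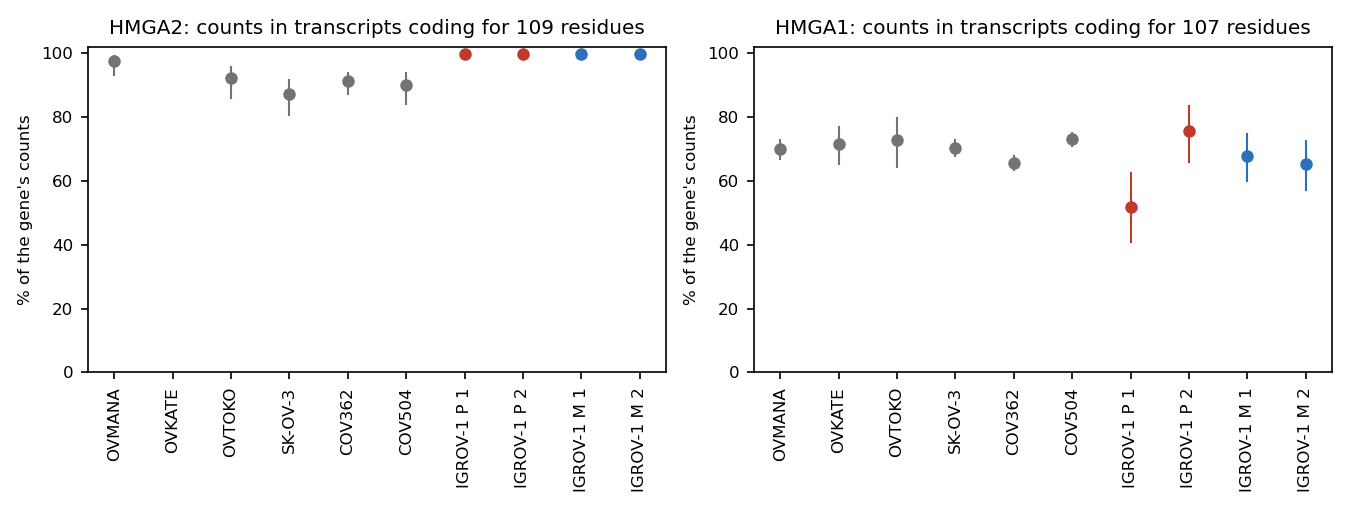
Share of a gene's counts (vertical axis, percent) in transcripts for the 109-residue HMGA2 form (left) and the 107-residue HMGA1 form (right), by library, with 95% Wilson intervals. OVKATE has no HMGA2 counts. HMGA2 shares are 99.67% to 99.94% in IGROV-1 and 87.3% to 97.6% in the other lines, while HMGA1 shares of IGROV-1 spread around those of the other lines.

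The same line on a second instrument gave a comparison that did not enter the choice of the genes. The IGROV-1 libraries also differed in mitochondrial ribosomal RNA, which the CPM totals include. It held 9.13% and 10.95% of the counts on the PromethION and 1.15% and 1.01% on the MinION, against 1.58% to 3.31% in the other lines. In IGROV-1, 0 of the 6 members with enough counts differed between MinION and PromethION (edgeR with Benjamini-Hochberg adjustment, adjusted p under 0.05). Of all 10041 genes tested, 0.817% did. This fit did not pair the libraries by replicate number. LIN28B did not pass the filter on low counts. LIN28A was 95.4 ± 21.5 CPM (SD, n = 2) on the MinION and 141.2 ± 44.5 CPM (SD, n = 2) on the PromethION, a log2 change of -0.61 (SE 0.22, edgeR adjusted p = 0.22). The LIN28A values of both instruments overlapped. IGF2BP2 was 104.4 ± 15.3 and 137.3 ± 7.6 CPM (SD, n = 2 each), a log2 change of -0.44 (SE 0.14, edgeR adjusted p = 0.17), and its values did not overlap.

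HMGA2 was 508.8 ± 42.1 CPM (SD, n = 2) on the MinION, a log2 change of 0.23 (SE 0.12, edgeR adjusted p = 0.38), with values that did not overlap either. HMGA1, IGF2BP3 and IGF2BP1 moved by 0.19, -0.14 and -0.12 on the log2 scale, with SEs of 0.16 and edgeR adjusted p of 0.61, 0.73 and 0.74. At an unadjusted p under 0.05 there were 2 of the 6, LIN28A and IGF2BP2, as were 16.5% of all genes tested. DESeq2 called 0 of the 6. With the replicate number as a block in edgeR, LIN28A, IGF2BP2 and HMGA2 were called, as were 1978 of all 10041 genes. The LIN28A result rested on PromethION replicate 1: without it the log2 change was -0.90 (edgeR adjusted p = 0.0030) and the gene was called. The IGF2BP1 sign turned without PromethION replicate 2, to 0.059.

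Per transcript, 0 of the 8 member transcripts tested differed between instruments, and 2.29% of all 14023 transcripts did (edgeR, Benjamini-Hochberg). At an unadjusted p under 0.05 there were 3 of the 8, as were 17.6% of all transcripts tested. DESeq2 called 0 of the 8. The largest log2 change was -1.54 for the shorter LIN28A transcript ENST00000254231 (SE 0.47, edgeR adjusted p = 0.14), which was called without PromethION replicate 1 (log2 change -1.88, edgeR adjusted p = 0.023). The main LIN28A transcript ENST00000326279 was called in that setting as well (log2 change -0.87, edgeR adjusted p = 0.0071). Changes in the balance of transcripts within a gene could be tested for LIN28A and HMGA1, where edgeR's adjusted p was 0.85 and 1.0. Of all 2979 genes tested for such changes 5.98% were called. Per transcript with the replicate number as a block, both LIN28A transcripts and the main IGF2BP2 and HMGA2 transcripts were called. So were 2291 of all 14023 transcripts.

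**Figure D4:**
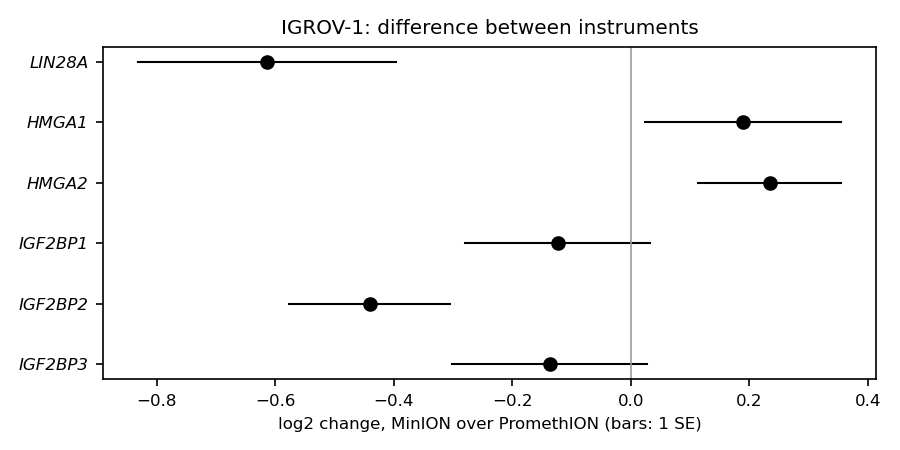
Log2 change of each gene between instruments in IGROV-1, MinION over PromethION, with bars of 1 SE. The values run from -0.61 (LIN28A) to 0.23 (HMGA2), and none passed the adjusted threshold in this fit, which has no replicate block.

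The genes that work with LIN28 on let-7 were then compared between each line and IGROV-1 PromethION. Here a gene was called at an edgeR quasi-likelihood Benjamini-Hochberg adjusted p under 0.05, in a fit of all 10 libraries whose spread comes from the IGROV-1 replicates, and a single library of another line is taken to vary as these do. The 6 comparisons share the IGROV-1 libraries. The largest rise or fall of a list is meant by the fitted log2 change. For a gene at 0 counts in a group that value depends on the prior count and is no measure of rank, so such genes are given with their lower bound. Of all 13030 genes tested, the shares called higher and lower than in IGROV-1 were, respectively, for COV504 24.0% and 19.6%, for COV362 23.7% and 18.8%, for SK-OV-3 22.0% and 19.8%, for OVTOKO 18.2% and 15.9%, for OVKATE 26.8% and 22.4%, and for OVMANA 18.9% and 16.5%. Over all 5 lists below, with 24, 4, 25, 12 and 22 genes tested, 32 to 46 genes a line were called. These totals have to be read beside the shares of all genes just given. DESeq2 called 10 to 18 list genes a line. Over all genes DESeq2 called 857 to 1230 higher and 448 to 887 lower a line, against 2374 to 3492 and 2069 to 2913 with edgeR. OVTOKO had 26 list genes called without MinION replicate 1 or without MinION replicate 2, against 40 with all libraries. Calls over all genes in OVTOKO fell in these settings as well.

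Of 25 genes of let-7 maturation and turnover, 24 were tested. Higher and lower calls numbered, for COV504 1 and 6, for COV362 3 and 6, for SK-OV-3 2 and 9, for OVTOKO 3 and 6, for OVKATE 2 and 10, and for OVMANA 3 and 4. The median log2 change was -0.17 to -0.51, against -0.01 to 0.04 for all genes. The share called higher lay below that of all genes in each line, and in 46 of 48 combinations of a line with an alternative setting, the exceptions being SK-OV-3 and COV362 with DESeq2. Some of the counts changed when 1 library was left out. Lower calls fell to 2 in OVMANA without MinION replicate 1 or MinION replicate 2, and to 5 in SK-OV-3 without PromethION replicate 1, MinION replicate 1 or MinION replicate 2. Higher calls in OVTOKO fell to 1 without MinION replicate 1 or MinION replicate 2. Over all genes, lower calls in OVMANA fell from 2147 to 1314 and 1453 in these settings. Those in SK-OV-3 went from 2576 to 2507, 1947 and 1975, and higher calls in OVTOKO from 2374 to 1685 and 1960.

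TUT4, the terminal uridylyltransferase that LIN28A recruits to the let-7 precursor, was at 40.6 and 43.0 CPM in IGROV-1 PromethION. It stood at 42.8 CPM in OVTOKO, 31.9 in SK-OV-3, 23.0 in OVMANA, 17.8 in COV504, 16.8 in OVKATE and 14.9 in COV362. It was called lower in the last 3 of these (edgeR adjusted p = 0.0025, 0.00082 and 0.0017) and these calls were lost with DESeq2. It was also called lower in OVMANA (edgeR adjusted p = 0.027), which was lost in 5 of 8 alternatives including those without PromethION replicate 2, MinION replicate 1 or MinION replicate 2, and in SK-OV-3 (edgeR adjusted p = 0.047), which was lost in 8 of 8.

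TUT7, its paralog, was at 16.7 and 12.9 CPM in IGROV-1 PromethION and 7.84 to 27.7 CPM elsewhere, and was not called in any line. DIS3L2, the exonuclease that degrades the uridylated precursor, was at 1.73 to 9.40 CPM in all libraries and was not called either. DICER1, which makes the mature microRNA, was at 22.6 and 23.6 CPM in IGROV-1 PromethION and at 8.01 CPM in COV504, where it was called lower (log2 change -1.60, edgeR adjusted p = 0.0034, lost with DESeq2). Its call in SK-OV-3 (15.7 CPM, edgeR adjusted p = 0.046) was lost in 8 of 8 alternatives. TRIM71, a LIN28 partner of embryonic cells, had at most 1 count in a library.

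The largest called rise in this list was TRIM25, a cofactor of LIN28A in precursor uridylation, in OVMANA, SK-OV-3 and COV504. It was at 23.9 and 36.9 CPM in IGROV-1 PromethION against 95.1, 124.1 and 119.2 CPM in these lines. In OVKATE, OVTOKO and COV362 it was PRKRA, a partner of Dicer, at 40.6 and 36.9 CPM in IGROV-1 PromethION against 140.5, 83.8 and 104.2 CPM. The called fall with the lowest fitted value was MSI1, an RNA-binding protein, in 5 lines, from 5.13 and 6.01 CPM in IGROV-1 PromethION to 0 in 4 of them (at least 3.2- to 4.7-fold lower) and 0.99 CPM in OVKATE. These MSI1 calls were lost with DESeq2. In SK-OV-3 it was TARBP2, at 12.7 CPM against 26.1 and 30.9 CPM (log2 change -1.39, edgeR adjusted p = 0.0059, lost with DESeq2).

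The let-7 precursors themselves had 0 counts under all 12 of their gene identifiers. No library for small RNAs is in the series, so these counts do not show whether let-7 was present or absent in a line. Of 8 let-7 host transcripts, 4 were tested, and no more than 2 were called in either direction in a line. WDR82 was the largest called fall in 5 lines, at 82.7 to 137.3 CPM against 171.3 and 206.6 CPM in IGROV-1 PromethION, and MIRLET7BHG in OVKATE (0.49 CPM against 6.41 and 5.58). MIR100HG was at 0 in IGROV-1 and at 14.7 CPM in SK-OV-3, 9.34 in COV504 and 7.05 in COV362, at least 22.9-, 14.5- and 11.0-fold higher. The MIR100HG calls were lost with DESeq2, and so were those of MIRLET7BHG and of WDR82 outside COV504. The WDR82 call was also lost without MinION replicate 1 in OVMANA, and in SK-OV-3 without PromethION replicate 2, MinION replicate 1 or MinION replicate 2.

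Of 27 known let-7 targets outside the 7 genes, 25 were tested. Higher and lower calls numbered, for COV504 5 and 11, for COV362 4 and 9, for SK-OV-3 3 and 12, for OVTOKO 3 and 13, for OVKATE 6 and 11, and for OVMANA 4 and 7. The median log2 change ran from -0.33 in COV362 to -1.35 in SK-OV-3. With genes at 0 in a group set at their floor the medians were -0.33 to -1.14. The share called lower was above that of all genes in each line, and in 48 of 48 combinations of a line with an alternative setting. The share called higher was below it in each line with all libraries, and in 38 of the 48 combinations. In OVMANA, for example, 5 of 25 were called higher without PromethION replicate 1 (18.6% of all genes) and 4 of 25 without MinION replicate 1 (14.0%). In COV504 they were 6 of 25 without PromethION replicate 2 (22.7%) and 5 of 25 without MinION replicate 1 (19.5%). The 13 lower calls in OVTOKO became 7 without MinION replicate 1 or MinION replicate 2 and 5 with DESeq2. Over all genes, lower calls in OVTOKO fell from 2069 to 1205, 1324 and 448 in these settings. Higher calls became 2 in COV362 without MinION replicate 1 and 5 in SK-OV-3 without PromethION replicate 1. The list was put together with earlier results of these data known, so its direction is a description.

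The targets did not move as one. CDK6, a cell cycle kinase, was at 0 in all 4 IGROV-1 libraries and at 8.55 CPM in OVMANA, 10.6 in SK-OV-3, 23.1 in OVTOKO, 41.1 in OVKATE, 57.6 in COV362 and 87.7 in COV504. It had the highest fitted value of the called rises in each line and was higher from at least 13.3-fold (OVMANA) to at least 136.4-fold (COV504). MYCN, a transcription factor of embryonal tumours, was at 23.1 and 33.1 CPM in IGROV-1 PromethION and at 0 in OVMANA and SK-OV-3, at least 17.5- and 18.5-fold lower. MYCN was also called lower in COV362 (0.78 CPM), yet OVKATE had 70.2 CPM.

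The ARID3 genes code for DNA-binding proteins of early development. ARID3B was the largest called fall in COV504, at 0.89 CPM against 34.6 and 43.0 CPM in IGROV-1 PromethION (edgeR adjusted p = 8.3e-05). It was at 23.5 CPM in OVMANA and at most 4.70 CPM in the 4 other lines. ARID3A, the gene nearest to IGF2BP1 in pattern, was at 67.5 and 57.6 CPM in IGROV-1 PromethION, 85.5 in OVMANA, 19.1 in OVTOKO and at most 3.96 CPM elsewhere. PRTG, a surface receptor of the embryo, was at 0 in OVKATE against 12.4 and 19.3 CPM in IGROV-1 PromethION (at least 10.7-fold lower). TGFBR1, the type I TGF-beta receptor, was at 0 in OVTOKO against 20.9 and 28.8 CPM (at least 14.3-fold lower).

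Of 20 other oncofetal and pluripotency genes, 12 were tested. Higher and lower calls numbered, for COV504 6 and 5, for COV362 3 and 2, for SK-OV-3 2 and 4, for OVTOKO 2 and 3, for OVKATE 3 and 4, and for OVMANA 2 and 3. The share called higher was 50.0% in COV504 (24.0% of all genes) and 16.7% to 25.0% elsewhere (18.2% to 26.8%). The share called lower was 16.7% to 41.7%, against 15.9% to 22.4% of all genes. Of 48 combinations of a line with an alternative setting, the higher share was below that of all genes in 24. The lower share was above it in 46. Higher calls fell to 1 in OVMANA without MinION replicate 1 or MinION replicate 2 and to 1 in SK-OV-3 without PromethION replicate 2 or MinION replicate 1. POU5F1, a transcription factor of pluripotent cells with near-identical pseudogenes that could share its reads, was at 111.1 and 57.6 CPM in IGROV-1 PromethION, at 140.5 and 74.5 CPM on the MinION and at 221.2 CPM in OVMANA. In the other lines it did not exceed 4.05 CPM. It was called lower in OVKATE and COV504, where it was at 0 (at least 56.8- and 63.2-fold lower), and in COV362 (0.78 CPM).

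H19, the imprinted long RNA that can bind let-7, was at 525.8 CPM in OVMANA and 123.2 CPM in COV504 and at 0 in IGROV-1, at least 818.3- and 191.8-fold higher. IGF2, the growth factor whose messenger gave the IGF2BP family its name, was counted under an identifier joined with INS-IGF2 and INS. It was at 866.5 CPM in OVKATE and 18.7 CPM in COV504 and at most 1.73 CPM in the other lines, including 0.85 and 0 CPM in IGROV-1 PromethION. OVKATE, the line richest in IGF2, had 0 counts of IGF2BP1 and 1 count of IGF2BP3.

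SOX2, a partner of POU5F1, was the largest rise in COV362 (36.8 CPM) and OVTOKO (9.25 CPM), against 0.43 and 0 CPM in IGROV-1 PromethION. Its highest level was in COV504 (201.5 CPM), where H19 had the larger fitted value. KLF4, another pluripotency factor, was the largest in SK-OV-3, at 15.2 CPM against 1.28 and 1.29 CPM, a call lost with DESeq2. PEG10, an imprinted gene of retroviral origin, was called lower in SK-OV-3, at 1.01 CPM against 271.2 and 231.1 CPM (edgeR adjusted p = 3.9e-06). GPC3, a fetal surface glypican, was called lower in OVMANA and OVTOKO, where it was at 0 against 5.55 and 5.58 CPM (at least 3.5- and 3.2-fold lower). The OVMANA call was lost with DESeq2.

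All 22 genes of the list of IGF2BP partners and of RNA adenosine methylation were tested. Higher and lower calls numbered, for COV504 0 and 6, for COV362 2 and 9, for SK-OV-3 0 and 7, for OVTOKO 1 and 8, for OVKATE 1 and 7, and for OVMANA 2 and 6. The median log2 change was -0.39 to -0.56. In each line the share called higher was below that of all genes, and this held in 48 of 48 combinations of a line with an alternative setting. The share called lower was above that of all genes in each line with all libraries, and in 42 of these 48 combinations. The 6 exceptions were in OVKATE (4 of 22 called lower with RLE size factors, in the fit of the 8 PromethION libraries, without PromethION replicate 1 and without MinION replicate 2) and in COV504 (3 of 22 without MinION replicate 1 or MinION replicate 2). Without MinION replicate 1 or MinION replicate 2, lower calls also numbered 4 in OVKATE and 3 in OVMANA, and without PromethION replicate 2 they numbered 5 in OVTOKO. The few higher calls moved as well, in COV362 to 0 without PromethION replicate 2 and 1 without MinION replicate 1, in OVTOKO to 0 without PromethION replicate 1, MinION replicate 1 or MinION replicate 2, and in SK-OV-3 to 1 without PromethION replicate 1.

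PABPC1, the poly(A)-binding protein, was at 2410 and 2959 CPM in IGROV-1 PromethION and was the largest called fall in OVKATE (496.1 CPM), SK-OV-3 (774.4 CPM) and COV504 (629.1 CPM), with log2 changes of -2.74, -2.02 and -2.17 (edgeR adjusted p = 4.3e-05, 0.00023 and 0.00014). YTHDC2, a reader of methylated adenosine, was the largest in COV362, at 0.78 CPM against 15.4 and 13.8 CPM. ALKBH5, a demethylase, was the largest in OVMANA, at 26.2 CPM against 81.6 and 97.1 CPM, and ZC3H13, of the methyltransferase complex, in OVTOKO, at 30.1 CPM against 64.5 and 79.9 CPM, a call lost with DESeq2. YTHDF1, another reader, was the largest rise in OVMANA (102.1 CPM) and OVKATE (89.0 CPM), against 44.4 and 41.2 CPM, and both calls were lost with DESeq2. FMR1 in COV362 (edgeR adjusted p = 0.023) was lost without PromethION replicate 2, without MinION replicate 1 and with DESeq2. YBX1 in OVTOKO (edgeR adjusted p = 0.0499) was lost in 7 of 8 alternatives.

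**Figure D5:**
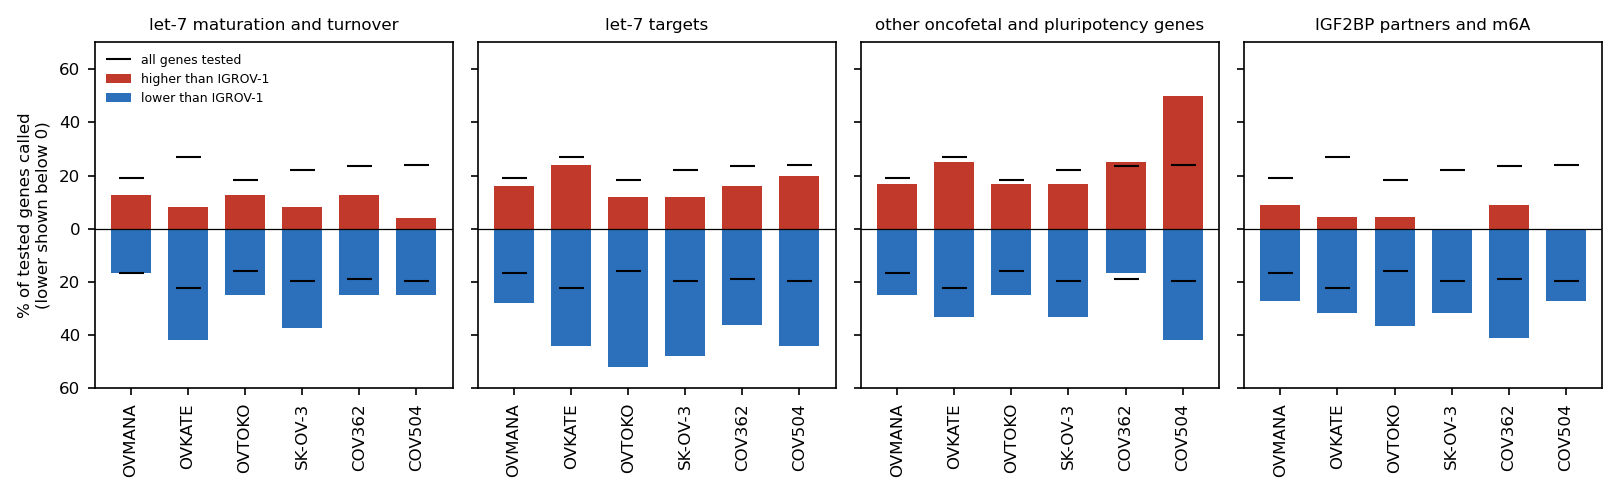
Share of the tested genes of a list called higher (red, above 0) or lower (blue, below 0) in each line than in IGROV-1 PromethION, in percent. Black dashes mark all 13030 genes tested. The list of let-7 host transcripts is not drawn. Dashes above the red bars and within the blue bars mark lists with fewer rises and more falls than all genes in the fit of all libraries. For let-7 targets the blue bars pass the dashes in each line, and the red bars end close below them in OVMANA (16.0% against 18.9%).

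PAX8, a marker of ovarian carcinoma, was counted in all 10 libraries (84.1 to 339.8 CPM). Of the other epithelial markers, the 4 IGROV-1 libraries held KRT18 (243.6 to 1080 CPM), KRT19 (140.1 to 177.0 CPM) and KRT8 (5.15 to 11.4 CPM), with KRT7 and CDH1 at 0 and EPCAM at no more than 1.54 CPM. EPCAM and CDH1 were also low in OVTOKO (8.67 and 2.31 CPM), as was CDH1 in COV362 (1.57 CPM). The germ cell markers DDX4 and DAZL and the immune markers PTPRC and CD3E stayed below 3 counts in every library. So did VWF (endothelial) and DCN and PDGFRB (fibroblast). Other markers of these cell types were counted. The fibroblast marker COL1A1 reached 3 counts in 9 libraries (up to 219.3 CPM in SK-OV-3) and LUM in 1 (52.7 CPM in SK-OV-3). The endothelial markers CDH5 and PECAM1 did so in 5 (up to 24.9 CPM in COV504) and 3 libraries (up to 10.6 CPM in SK-OV-3). The immune marker CD14 did so in 4 (up to 4.0 CPM in COV504).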

How the data were processed

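Per the labels' protocols, RNA was purified with a column kit and libraries were made with a ligation kit for nanopore sequencing. The submitters' processing notes name GRCh38 and minimap2 2.24-r1122. The quantification tool and its settings are not stated. The authors deposited an estimated count for each transcript. The deposited TPM equalled the count scaled to the library total and was therefore not divided by length. The 24 member transcripts had the same positions as in GENCODE 29.

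Transcript estimates were summed per gene, written as CPM, and rounded for tests. Tests used edgeR 4.0.16 in R 4.3.3 (quasi-likelihood, TMM, default expression filter, Benjamini-Hochberg over all features, two-sided, calls at an adjusted p under 0.05), with DESeq2 1.42.0 as an alternative. The main edgeR fits were tested on simulated data. The simulated libraries all had the same spread and no replicate effect. The simulation therefore could not show whether single libraries vary as the IGROV-1 replicates do. Counts have 95% exact Poisson intervals and shares 95% Wilson intervals. Library totals and their 3-count floors set the precision. The coefficient of biological variation was 11.7%, and the line fit has 2 residual degrees of freedom.

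The members and the gene lists were chosen with earlier results of these data known. Named are all members, their transcripts with at least 10% of a gene's counts, the largest called rise and fall (fitted log2 change) of each list in each line, TUT4, TUT7, DIS3L2, DICER1, TRIM71, IGF2 and H19, and the 3 genes most alike to each member. Minor HMGA2 forms were added after their values were seen. Of the list genes, MIRLET7A1HG and MIRLET7IHG were not found by symbol, and RRM2, IGF2 and MATR3 are joined with other genes. Alternatives were another normalization, test, filter and set of libraries, other totals for CPM, other seed matches and another pseudocount.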

Additional observations from a re-analysis of the deposited data

How the results depend on the processing

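No called list gene named in the text and no tested member gene other than IGF2BP1 changed direction under the alternatives run. Between instruments, without 1 library at a time, 0 to 1 member genes and 0 to 2 member transcripts were called. Leaving out 1 library at a time, the log2 change of IGF2BP1 ran from -0.29 (without PromethION replicate 1) to 0.059 (without PromethION replicate 2) and that of its transcript ENST00000290341 from -0.30 to 0.041 likewise. For the HMGA1 transcripts it ran from -0.20 (without PromethION replicate 1) to 0.57 (without PromethION replicate 2) for ENST00000311487 and from -0.082 (without PromethION replicate 2) to 0.52 (without PromethION replicate 1) for ENST00000401473. The uncalled DIS3L2 ran from -0.61 to 0.13 in COV504, from -0.44 to 0.31 in SK-OV-3 and from -0.21 to 0.53 in OVMANA, lowest without PromethION replicate 1 and highest without PromethION replicate 2. The cause was not tested.

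The IGROV-1 libraries share replicate numbers across instruments, but the labels do not say that a number marks a shared culture. Deviations of replicate 1 from the group means correlated across 8717 genes with a Pearson r of 0.416. With the replicate number as a block (replicate block), 3 member genes (LIN28A, IGF2BP2 and HMGA2) and 4 member transcripts were called. Of all 10041 genes, 1978 were called in place of 82, and of all 14023 transcripts 2291 in place of 321.

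List genes called with DESeq2 were 12 in OVMANA, 18 in OVKATE, 10 in OVTOKO, 17 in SK-OV-3, 18 in COV362 and 18 in COV504, against 32, 46, 40, 41, 41 and 43 with edgeR. Over all genes DESeq2 also called fewer, 857 to 1230 higher and 448 to 887 lower a line, against 2374 to 3492 and 2069 to 2913. Without 1 IGROV-1 library at a time OVTOKO had 26 to 36 list genes called.

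With mitochondrial ribosomal RNA left out of the totals, IGROV-1 PromethION was at 4.14 times the highest other line for HMGA2 (3.84 with it), 1.25 times for IGF2BP3 (1.16) and 0.996 times for IGF2BP2 (0.911). With transcripts of at least 5 counts alone, the HMGA2 share with a seed match was 100% in OVMANA, OVTOKO and IGROV-1. With an 8-base match the HMGA1 share was 0%. Depth limits LIN28B, IGF2BP1 in COV362 and the minor HMGA2 forms, which rest on few counts.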
